A study of Danio rerio with 12 samples.

Results

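A set of 97 genes, none of them a named circadian clock gene, had lower messages in every methylmercury (MeHg) lineage library than in any control lineage library of adult zebrafish brain. They were found among 32674 genes in the authors' table, of which 16364 had a scaled count of at least 10 in at least 6 libraries. A scaled count here is the number of fragments assigned to a gene, divided by the authors' size factor for the library. In 121 of the 16364 genes (0.739%) the highest of the 6 MeHg values was below the lowest of the 5 control values. Of these 121, 24 were left out by name because they belong to the clock, light-induced, heat shock and metal-response families or were described with them, which left the 97 members. The members were thus selected on the lineage difference itself. Their differences are given as a description, and nothing is read from their number or their direction. A fit of all 16364 genes, given below, includes the members, but no support for them is drawn from it.

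The fish are of the EK strain. Their ancestors, exposed as eggs during 24 h to 0.03 µM MeHg, founded the MeHg lineage, and eggs kept in 0 µM founded the control lineage, both in the ethanol vehicle. These eggs, raised normally afterwards, were the F1 generation. Brains came from adults of the F3 generation, which never met the compound, so all fish compared were themselves unexposed. Control replicates 2, 4, 5, 6 and 8 and MeHg replicates 1, 2, 4, 5, 7 and 8 were compared. The labels call the samples biological replicates. They give neither the number of brains in a sample, nor that of founding pairs in a lineage, nor the time of day at collection. Clock genes were among the 24 left out, so for the genes below the lineage and the time of collection cannot be told apart.

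Methylmercury is a lipid-soluble organic mercury that crosses into the brain and binds thiol and selenol groups. Mitochondria are among its known targets in directly exposed cells, and cells export mercury bound to glutathione through ATP-driven transporters of the ABCC family. A transgenerational design asks another question, whether descendants without exposure still differ. The members span the respiratory chain's assembly factors, mitochondrial translation, transporters, signalling enzymes, neuropeptide signalling, transcription regulators and the ubiquitin system. These roles were assigned after the values had been seen, and 45 of the 97 members were placed in no role.

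Libraries differed in depth and in markers of tissues next to the brain. The implied depth ran from 2062500 to 6101008 fragments in control libraries and from 3248659 to 7504246 in MeHg libraries, and the lineages did not differ beyond their spread (exact permutation test over 462 splits, two-sided p = 0.630). Neuron markers summed to between 36870 and 52530 scaled counts in every library. No member belonged to any of the 15 marker lists, but these are short, with at most 19 tested genes each. Nothing about cell types is therefore read from that. Of 19 library measures tested in this way, vessel markers had the smallest p, with sums of 1885 to 2279 in controls and 2234 to 2464 in MeHg libraries (exact permutation p = 0.00866, adjusted over the 19 measures 0.165). Lens markers summed to 59.04 to 91.96 in controls and 49.7 to 68.4 in MeHg libraries (exact permutation p = 0.0346, adjusted 0.329). The other 17 had an exact permutation p of 0.182 or more. Epidermis markers summed to 79240 in control replicate 4, 59560 in MeHg replicate 5 and 33770 in MeHg replicate 4, against 2176 to 9759 in the other 8 libraries. MeHg replicate 4 also held the highest muscle, pituitary and cartilage sums, and MeHg replicate 8 the highest retina sum. Control replicate 5 held the highest sums of radial glia, oligodendrocyte, lens and red blood cell markers. In bulk tissue, fewer cells of a type and less RNA per cell cannot be told apart.

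Most members were separated by a narrow gap. The ratio of the lowest control to the highest MeHg value had a median of 1.04 over the 97 members. The lowest control was at least 25% above the highest MeHg library in 10 members and under 5% above it in 53. The fold by which the MeHg lineage was lower, taken between means of log2(scaled count + 1), ran from 1.09 to 8.26 with a median of 1.48. It was 2-fold or more in 17 members and under 1.5-fold in 49. The median log2 difference was -0.57 in the members and 0.03 in all 16364 genes. Median within-lineage SD on the log2 scale was 0.249 for members and 0.394 for all genes, as separation by rule favours genes with little spread. Median level was 14.8 FPKM (fragments scaled to gene length and depth) in members and 9.17 in all genes. Levels ran from 1.03 FPKM in control brains for the homeobox gene evx2 to 346 for the dynein light chain gene dynll1.

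**Figure D1:**
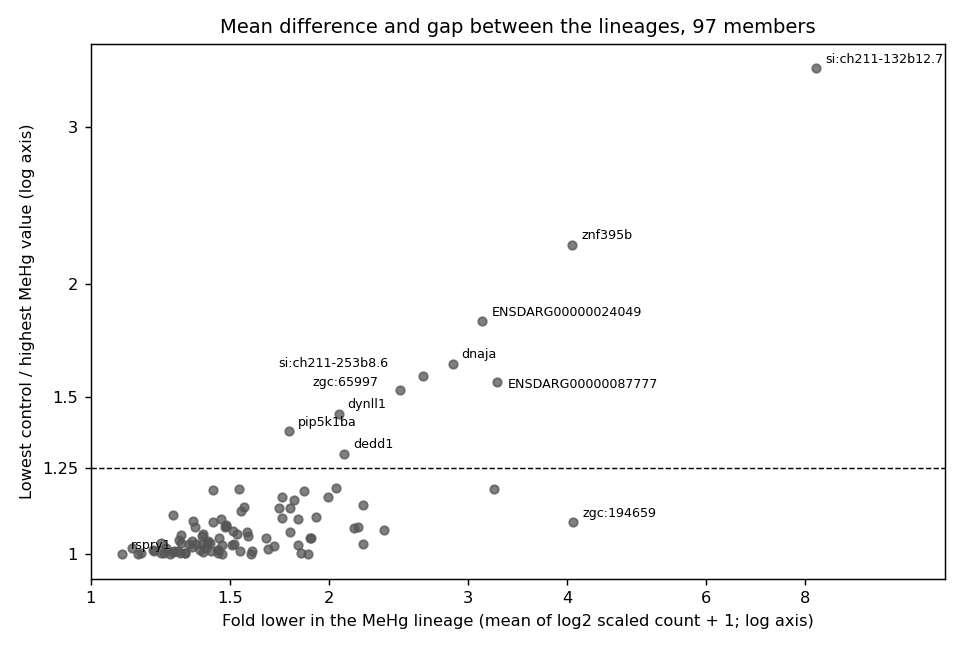
Each point is 1 of the 97 members. The horizontal axis gives the fold by which the mean was lower in the MeHg lineage and the vertical axis the ratio of the lowest control to the highest MeHg library, both on log axes. The dashed line marks a lowest control 25% above the highest MeHg value, which 10 members reach, and most points lie just above 1.

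At the edge of the rule, the gene rspry1 was just inside, with a lowest control of 156.2 and a highest MeHg value of 156.0 scaled counts. The LIM domain gene lmcd1 was inside with 41.95 against 41.94. The nuclear import receptor gene ipo7 was inside with 646.8 on both sides to the digits shown. Just outside were ENSDARG00000017864 with a lowest control of 514.7 and a highest MeHg value of 514.8, bnip4 with 45.72 and 45.75, and utrnp with 10.88 and 10.90. In these 6 genes the lineages were apart, or overlapped, by less than the value of 1 fragment. Under 3 other ways of scaling the libraries and in the FPKM table, 63 of the 97 members stayed separated in all 4, and 6 in none of them. Among the members described below, cetn4 stayed separated in 1 of the 4, and acadvl, ctsd, hectd3 and klhl20 in 2. A member described without this information was not always separated in all 4.

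The member with the widest gap was si:ch211-132b12.7, a gene with a clone-style name for which no role is given here and which is named after its values were seen. Its scaled counts in control replicates 2, 4, 5, 6 and 8 were 582.9, 405.5, 288.4, 328.6 and 236.5. In MeHg libraries the lowest was 24.2, the median 46.1 and the highest 67.9. The lowest control was 3.48 times the highest MeHg library, and the mean was 8.26-fold lower.

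The zinc finger gene znf395b had the widest gap among members with an assigned gene name. Its control values were 422.9, 290.5, 457.7, 320.2 and 255.0 scaled counts. In the MeHg lineage it ran from 58.9 through a median of 86.4 to 115.1, a 4.06-fold lower mean. The lowest control, replicate 8, was still 2.21 times the highest MeHg library, replicate 2.

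The next named member, a gene of the DnaJ co-chaperone family, partners of Hsp70 in protein folding, carries the name dnaja in the reference table and no symbol in the file, so the rule, which reads the file's symbol, keeps it. Its control values were 73.1, 54.4, 52.2, 80.6 and 41.6 scaled counts. In the MeHg lineage they ran from 16.2 through a median of 19.5 to 25.5, 2.87-fold lower. The highest MeHg value, in replicate 1, lay well under the lowest control, replicate 8.

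dynll1, which encodes a light chain shared by dynein and several other protein complexes, had the highest level per gene length among the members, 346 FPKM in controls. In scaled counts, which are not corrected for length, it stood at 1184, 1030, 2067, 1009 and 1218 scaled counts in control libraries. In MeHg libraries it ran from 460.4 through a median of 631.1 to 702.7. The mean was 2.06-fold lower, and control replicate 5 lay well above the other 4 controls. The other cilium and centriole members were ift46, of the intraflagellar transport complex, the centrin gene cetn4 and c10h21orf59, CFAP298 in the reference table and needed for motile cilia, with means 1.32, 1.71 and 2.21-fold lower. In 3 of these 4 genes control replicate 5 was the highest control, beside 56.7% of all members and 33.4% of all tested genes.

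**Figure D2:**
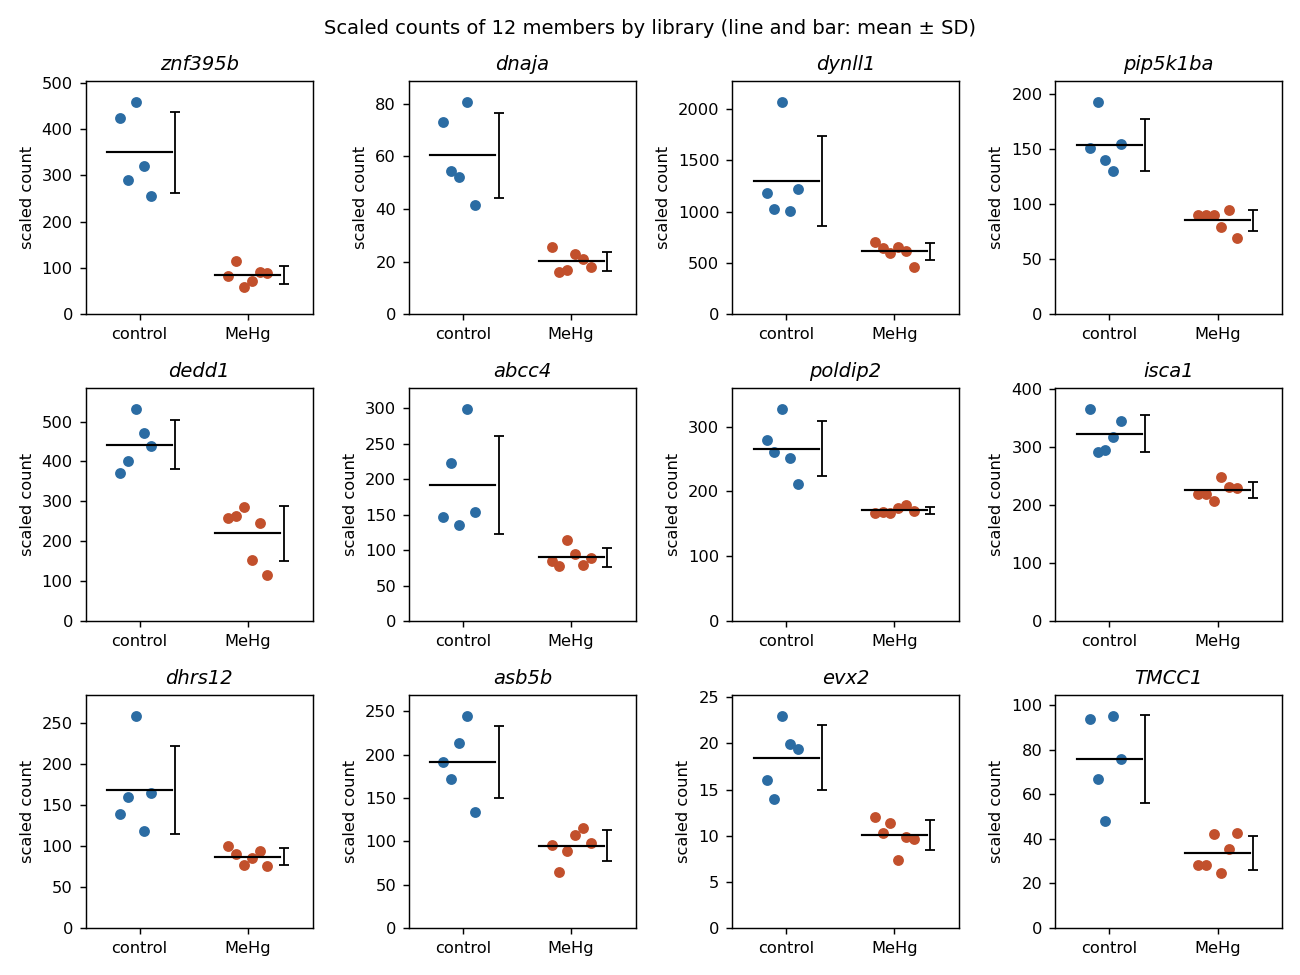
Scaled counts of the 12 members with the widest gaps among those with a gene symbol, on linear axes from 0. Each dot is a library (5 control, 6 MeHg), horizontal lines are means and bars are ± SD. Control values spread more widely than MeHg values in most panels, and a single control dot stands high in dynll1 and dhrs12.

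Among all members, 8 also passed an adjusted p of 0.05 in the limma fit of all 16364 genes, where 28 genes (0.171%) were lower and 16 (0.0978%) higher in the MeHg lineage. The 8 include si:ch211-132b12.7, znf395b, dnaja, dynll1 and pip5k1ba. The fit uses the contrast that chose the members, so this adds no support for them.

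Factors that assemble the respiratory chain, which passes electrons to oxygen in mitochondria, made up 6 members. They serve cytochrome c oxidase (SCO1 and cox17, which deliver copper, and coa5), cytochrome c itself (hccsa.1, which attaches heme), and complex III (uqcc1 and ttc19). SCO1 had the widest gap of the 6, with 91.4, 80.8, 104.5, 71.4 and 82.2 scaled counts in controls. Values in MeHg libraries ran from 43.1 through a median of 55.8 to 63.9, 1.55-fold lower. The other 5 were 1.26-fold (uqcc1) to 1.88-fold (hccsa.1) lower, each with nearest libraries under 5% apart.

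Control replicate 5 was the highest control library in all 6 of these genes, beside 56.7% of all members and 33.4% of all tested genes. For the copper chaperone gene cox17 it stood at 307.2 scaled counts, against 172.0 to 186.4 in the other controls and 119.5 to 170.0 in the MeHg libraries. For coa5 it stood at 85.7, against 40.4 to 55.4 and 33.2 to 40.2. Leaving it out changed the median log2 difference of the 6 from -0.54 to -0.42. cox17 and uqcc1 were separated under none of the 4 other scalings, so the ordering of their nearest libraries depends on the size factors used.

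Other genes for assembly of oxidative phosphorylation complexes were also examined. Their list was written after the members were seen, so it is not free of the selection. Of 33 such genes past the filter that are not members, none passed the limma adjusted p of 0.05. An unadjusted limma p under 0.05 was found in 7 of the 33, a larger share than the 6.61% of all tested genes (1082 of 16364). Their log2 difference was below 0 in 29 of 33 with a median of -0.25, beside 45.7% of all tested genes. Without control replicate 5 these became 23 of 33 and -0.14, beside 51.7%. The gene with the smallest p was sdhaf2, an assembly factor of succinate dehydrogenase. Its mean was 216.3 ± 45.9 scaled counts in controls (SD, n = 5) and 125.8 ± 37.9 in MeHg libraries (SD, n = 6), a log2 difference of -0.80 (limma adjusted p = 0.318). The lineages overlapped, since its lowest control was 138.3 and its highest MeHg value 176.8.

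Mitochondrial translation and RNA handling were represented by 5 members. They encode the mitochondrial ribosomal proteins mrps18a and mrps34, the translation factor guf1, the RNA-binding protein tbrg4 and the RNA helicase supv3l1. guf1 had the largest difference, 1.93-fold, and its control libraries fell into a high pair (118.9 in replicate 2 and 122.0 in replicate 8) and 3 lower values (54.4, 50.2 and 51.4). Its MeHg values ran from 27.9 through a median of 38.9 to 45.5 scaled counts, so the nearest libraries of the lineages, 45.5 and 50.2, were close. The other 4 were 1.28-fold to 1.38-fold lower.

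The other mitochondrial ribosomal protein genes, 62 past the filter by the symbols mrpl and mrps, gave no limma call, and 8 had an unadjusted p under 0.05, beside 6.61% of all tested genes. This list, too, was written after the members were seen. Of the 62, 58 had a log2 difference below 0, beside 45.7% of all tested genes, with a median of -0.26. Without control replicate 5 the count was 47 of 62, beside 51.7%, and the median -0.09. mrpl20, a protein of the large mitochondrial subunit, had the smallest p. It averaged 158.0 ± 30.9 scaled counts in controls (SD, n = 5) and 108.3 ± 19 in MeHg libraries (SD, n = 6), a log2 difference of -0.54 (limma adjusted p = 0.416). Genes of mitochondrial protein import and folding, on a list that holds no member, had 24 of 29 below 0 and a median of -0.19, with no limma call. Without control replicate 5 these were 23 of 29 and -0.11. Such shares were not confined to mitochondrial lists. Ribosome biogenesis, also a list without a member, had 30 of 37 below 0 and a median of -0.12. Without control replicate 5 it had 20 of 37 and -0.01. Light-induced genes had 22 of 25 below 0, and 18 of 25 without control replicate 5. This list holds cry1a, cry5, cry-dash, ddb2 and tefa, which met the rule and were left out by name. Part of its share was thus set by the selection. Cytoskeleton and axon genes had 10 of 56 below 0, and 17 of 56 without control replicate 5.

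**Figure D3:**
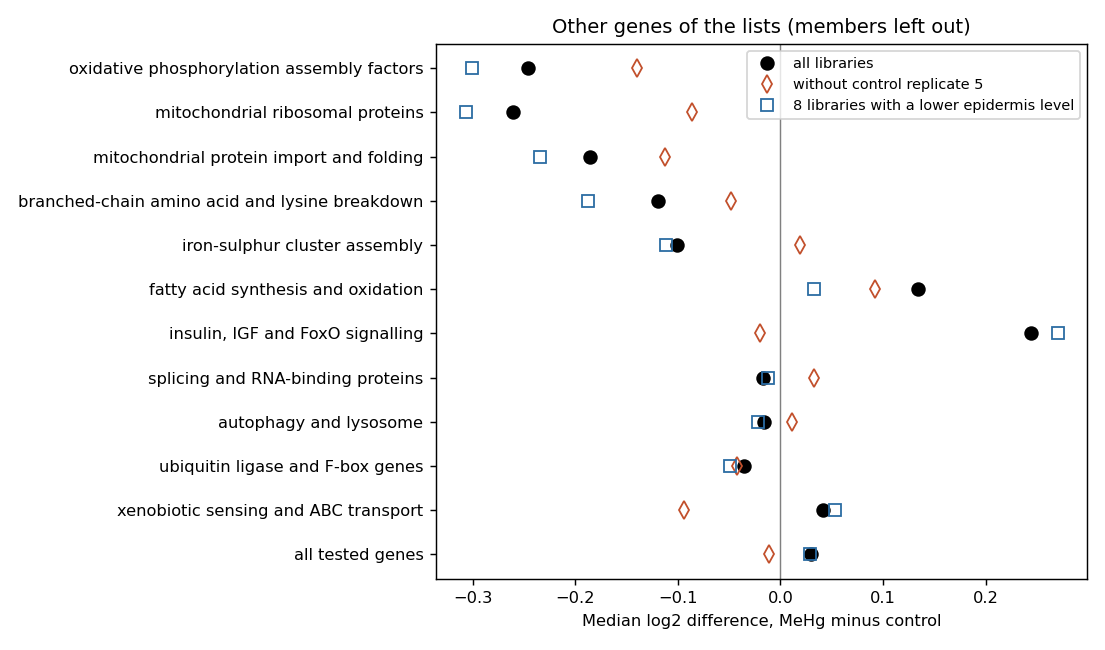
Median log2 difference (MeHg minus control) of tested genes on 11 of the 41 lists, members left out, and of all tested genes. The ribosome biogenesis and light-induced lists are not shown. Filled circles use all 11 libraries, diamonds leave out control replicate 5, and squares use the 8 libraries with a lower epidermis level. Medians of the 3 mitochondrial lists at the top stay below 0 in all 3 and lie nearer to 0 without control replicate 5.

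Members of mitochondrial oxidation and cofactor supply numbered 6. isca1, which builds iron-sulphur clusters for mitochondrial enzymes, had 365.7, 292.1, 294.7, 317.9 and 345.6 scaled counts in controls. In the MeHg lineage it ran from 207.4 through a median of 224.4 to 247.7, 1.43-fold lower. Both lineages were tight for this gene, and no single control stood far above the others.

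ivd, isovaleryl-CoA dehydrogenase of leucine breakdown, had control values of 617.2, 483.2, 796.3, 561.3 and 658.8 scaled counts. Its 6 MeHg values lay between 394.5 and 441.3 with a median of 417.3, 1.46-fold lower. gcdha, which encodes glutaryl-CoA dehydrogenase of lysine and tryptophan breakdown, was 1.54-fold lower, and arg2, a mitochondrial arginase, 1.58-fold. On the lists for these pathways, written after the members were seen, 28 other genes of branched-chain amino acid and lysine breakdown had 20 below 0 and a median of -0.12, and 20 other genes of iron-sulphur assembly had 15 below 0 and a median of -0.10. None of these genes passed the limma threshold. Without control replicate 5 the medians were -0.05 and 0.02, so the sign of the iron-sulphur median turned.

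Fatty acid oxidation gave acadvl and hadh, enzymes of the first and the third step of the mitochondrial cycle. acadvl stood at 816.0, 727.1, 714.8, 774.0 and 762.3 scaled counts in controls and from 622.8 through a median of 689.4 to 702.7 in MeHg libraries. It was 1.13-fold lower, one of the smallest differences among the members. hadh stood at 166.9, 186.4, 365.8, 165.1 and 191.3 in controls and from 120.5 through 138.1 to 164.6 in MeHg libraries. Its nearest libraries differed by under 1 scaled count, control replicate 5 was far above the other controls, and no other scaling kept it separated. The other 41 genes of fatty acid synthesis and oxidation had a median log2 difference of 0.13, with 17 below 0 and no limma call.

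Transport and xenobiotic sensing gave 3 members, in none of which control replicate 5 was highest, beside 56.7% of all members. abcc4, an ATP-driven exporter of organic anions and drug conjugates, had 146.3, 222.2, 135.9, 298.7 and 154.3 scaled counts in controls. Values in MeHg libraries ran from 78.2 through a median of 86.5 to 114.5, 2.04-fold lower. The control libraries spread over more than the gap between the lineages, with replicates 6 and 4 highest.

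nr1i2 encodes the pregnane X receptor, a nuclear receptor that senses foreign compounds and, in mammals, controls genes of drug metabolism and export. It had 105.1, 124.3, 79.4, 86.0 and 89.6 scaled counts in controls. Its MeHg values ran from 36.9 through a median of 54.9 to 72.3, 1.74-fold lower. The third member, slc6a16a, of the sodium-coupled neurotransmitter transporter family, was 1.78-fold lower.

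The 13 other genes of xenobiotic sensing and ABC transport past the filter were on a list written after the members were seen. They had a median log2 difference of 0.04, 6 were below 0 and none passed limma. abcc5, an exporter related to abcc4, had the smallest p, with 1765 ± 520 scaled counts in controls (SD, n = 5) and 1102 ± 341 in MeHg libraries (SD, n = 6), a log2 difference of -0.68 (limma adjusted p = 0.504). Its lineages overlapped.

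Signalling members numbered 5. pip5k1ba, a kinase that makes the membrane lipid phosphatidylinositol 4,5-bisphosphate, had 150.9, 192.7, 140.0, 129.8 and 155.2 scaled counts in controls. In the MeHg lineage it ran from 69.1 through a median of 89.9 to 94.6, 1.78-fold lower, and 4 of the 6 lay within 5 scaled counts of each other. plce1, a phospholipase that cleaves the same lipid, was 1.67-fold lower.

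pik3ip1, an inhibitor of phosphatidylinositol 3-kinase, stood at 1127, 1063, 1436, 1300 and 1008 scaled counts in controls and from 724.5 through 815.6 to 978.5 in MeHg libraries, 1.41-fold lower. On the list of insulin, IGF and FoxO signalling the 30 other genes had a median log2 difference of 0.24, 8 of them below 0 and none past limma. Without control replicate 5 that median was -0.02. The last members here were the TNF receptor gene tnfrsf19, 1.41-fold lower, and kctd16b, an auxiliary subunit of GABA-B receptors, 1.3-fold lower.

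Neuropeptide and transmitter receptor members were pdyn, oprd1b and htr5al, named after their values were seen. pdyn, the precursor of dynorphin opioid peptides, had 107.4, 105.6, 257.1, 101.4 and 128.4 scaled counts in controls. Values in MeHg libraries ran from 21.5 through a median of 88.4 to 97.1, 1.90-fold lower. That mean rested on 2 libraries far from the rest, the high control replicate 5 and the low MeHg replicate 4, while the other values lay between 65.7 and 128.4.

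oprd1b, a delta opioid receptor gene, was at 79.9 to 96.2 scaled counts in controls and at 55.3 to 79.1 in MeHg libraries, 1.29-fold lower. No other scaling kept it separated. htr5al, a serotonin receptor gene of type 5, was at 45.1 to 71.1 in controls and 22.7 to 44.9 in MeHg libraries, 1.84-fold lower. Control replicate 5 was the highest control in all 3 of these genes, beside 56.7% of all members.

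Transcription and chromatin gave 7 members, with control replicate 5 highest in 6, beside 56.7% of all members. After znf395b came dedd1, DEDD2 in the reference table, a death effector domain gene. Its values were 370.3, 401.3, 531.3, 470.7 and 438.5 scaled counts in controls and 115.7 through 252.1 to 286.0 in MeHg libraries, 2.09-fold lower. MeHg replicates 8 and 5 were lowest at 115.7 and 152.0.

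evx2, a homeobox gene that marks spinal and hindbrain interneurons in development, was scarce, with 16, 14.0, 23.0, 19.96 and 19.4 scaled counts in controls. Its MeHg values ran from 7.36 through a median of 10.1 to 12.1, 1.75-fold lower. A count of 3 fragments corresponds to 6.86 scaled counts in control replicate 2 and to 2.01 in MeHg replicate 5, so the values of evx2 rest on few fragments. The other 4 were hmgb3b, a chromatin-bending HMG protein, mkl1b, a coactivator of serum response factor, the helicase-like ligase hltf, and ing3 of the TIP60 histone acetyltransferase complex, between 1.3-fold and 1.52-fold lower.

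**Figure D4:**
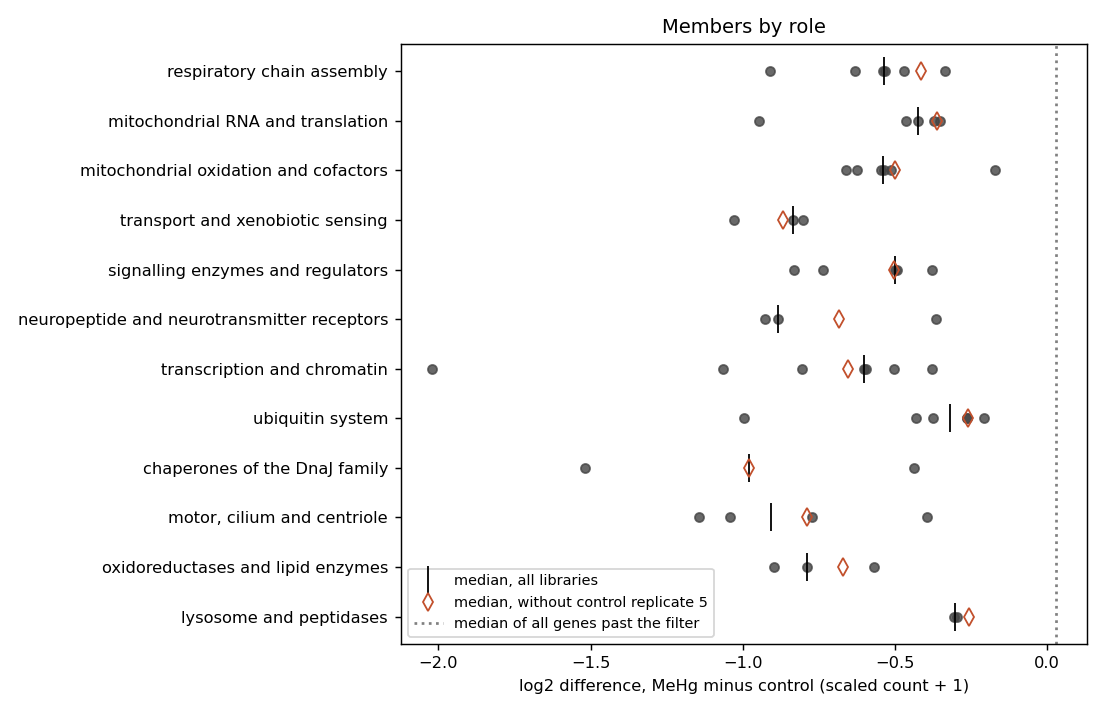
Log2 difference (MeHg minus control) of the 52 members that were placed in a role, 1 point each. Black bars are role medians over all libraries, red diamonds medians without control replicate 5, and the dotted line is the median of all genes past the filter, 0.03. All points are below 0 because the members were chosen that way.

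Ubiquitin system members numbered 6. asb5b, a SOCS box protein of the kind that recruits targets to cullin ligases, had 192.0, 172.5, 213.2, 244.9 and 134.0 scaled counts in controls. In the MeHg lineage it ran from 64.9 through a median of 96.7 to 115.5, 1.995-fold lower. fam192a, PSME3IP1 in the reference table and a partner of a proteasome activator, had 132.6, 136.7, 227.8, 139.7 and 124.7 in controls against a narrow band of 106.5 to 114.5 with a median of 109.7 in MeHg libraries. It was 1.35-fold lower. The ligases hectd3 and rnf10, the cullin adaptor klhl20 and the nucleolar deubiquitinase usp36 were 1.16-fold to 1.3-fold lower. The second DnaJ member, dnajc4, was at 158.2 to 194.4 in controls and 105.7 through 129.2 to 147.4 in MeHg libraries, 1.35-fold lower.

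Oxidoreductases and lipid enzymes gave 3 members, each with control replicate 5 highest, beside 56.7% of all members. The short-chain dehydrogenase gene dhrs12 had 139.4, 160.0, 259.2, 118.2 and 164.5 scaled counts in controls and 75.1 through 87.9 to 100.6 in MeHg libraries, 1.86-fold lower. Its relative dhrs9, which acts on retinoids and steroids in mammals, had 96.0, 76.1, 135.9, 97.5 and 88.7 in controls and 44.3 through 55.6 to 67.6 in MeHg libraries, 1.73-fold lower. agpat6, GPAT4 in the reference table and an enzyme of the first step of glycerolipid synthesis, had 322.3, 265.7, 338.6, 324.0 and 301.2 in controls and 184.3 through 208.2 to 246.7 in MeHg libraries, 1.48-fold lower. Lysosomal members were ctsd, the aspartic protease cathepsin D, and the carboxypeptidase cpvl, 1.23-fold and 1.24-fold lower.

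Of the named members in no role, poldip2, whose product binds DNA polymerase delta and also occurs in mitochondria, had 280.1, 261.0, 327.2, 251.5 and 211.6 scaled counts in controls. Its 6 MeHg values lay between 166.6 and 179.1 with a median of 168.9, 1.54-fold lower. The MeHg libraries were thus nearly level, while the controls ran from 211.6 to 327.2. hax1, a mitochondrial protein that guards against cell death, had 187.4, 167.8, 298.9, 186.6 and 166.3 in controls and 119.5 through 141.4 to 152.9 in MeHg libraries, 1.43-fold lower.

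TMCC1, of a family of endoplasmic reticulum membrane proteins, had 93.7, 66.8, 48.1, 95.2 and 75.8 scaled counts in controls and 24.8 through 31.9 to 42.4 in MeHg libraries, 2.21-fold lower. It differs from most members in that control replicate 5 was its lowest control. aamp, an angio-associated cell migration protein gene, was 1.83-fold lower, TATDN3, of the TatD nuclease family, 1.56-fold, and gdap2 1.27-fold. The splicing factor gene rbm39a, at 1007 to 1323 in controls and 744.5 to 1001 in MeHg libraries, was 1.23-fold lower, and only 1 of the 4 other scalings kept it separated.

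Pathway lists other than those written after the members were seen held 5 of the 97 members, beside 747 of all 16364 tested genes. The 5 were pik3ip1, acadvl, hadh, rbm39a and ctsd. Among the 742 other genes on these 21 lists, 6 were lower past the limma threshold. They were cry1a, cry5, cry-dash, ddb2 and tefa on the light-induced list and amd1 of polyamine synthesis, all among the 24 left out by name. Another 4 were higher, namely fus, fbxl3l, mstna and cxcl12b. No list other than the light-induced one thus had more than 1 further gene called in the direction of the members.

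Within a lineage the members varied together only in part. The mean pairwise correlation of their values, after each lineage mean had been removed, was 0.142 over 11 libraries, beside 0.0118 for all tested genes. Without control replicate 5 it was 0.0762, beside 0.0217. The 5 control libraries alone gave 0.219, beside 0.0106 for all tested genes, and the 6 MeHg libraries alone 0.0326, beside 0.0182. The genes left out by name gave 0.263 in the controls and 0.0555 in the MeHg libraries. These are descriptions, since genes measured in the same libraries share depth and tissue composition.

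The edge of the rule lies between the lowest control and the highest MeHg library. Control replicate 4, the library with the highest epidermis sum, held the lowest control value in 37 of 97 members (38.1%), beside 25.3% of all tested genes. Control replicate 8 held it in 25 members (25.8%), beside 10.2%. Control replicate 5 held it in 9 members (9.28%), beside 33.6%. The highest MeHg value was held most often by MeHg replicate 7, in 27 members (27.8%), a share near the 23.7% of all tested genes. At the far end from the edge, control replicate 5 held the highest control value in 55 members (56.7%), beside 33.4%. Averaged over the members, control replicate 5 lay 0.21 above its lineage mean on the log2 scale and control replicate 4 lay -0.13 from it, while the means of all tested genes deviated by -0.19 and 0.02. The genes left out by name differed in which control stood highest, with control replicate 2 at 0.39 above the control mean and control replicate 5 at -0.04. Within the lineages their mean still correlated with the mean of the members, at 0.356 over 11 libraries and 0.620 without control replicate 5.

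**Figure D5:**
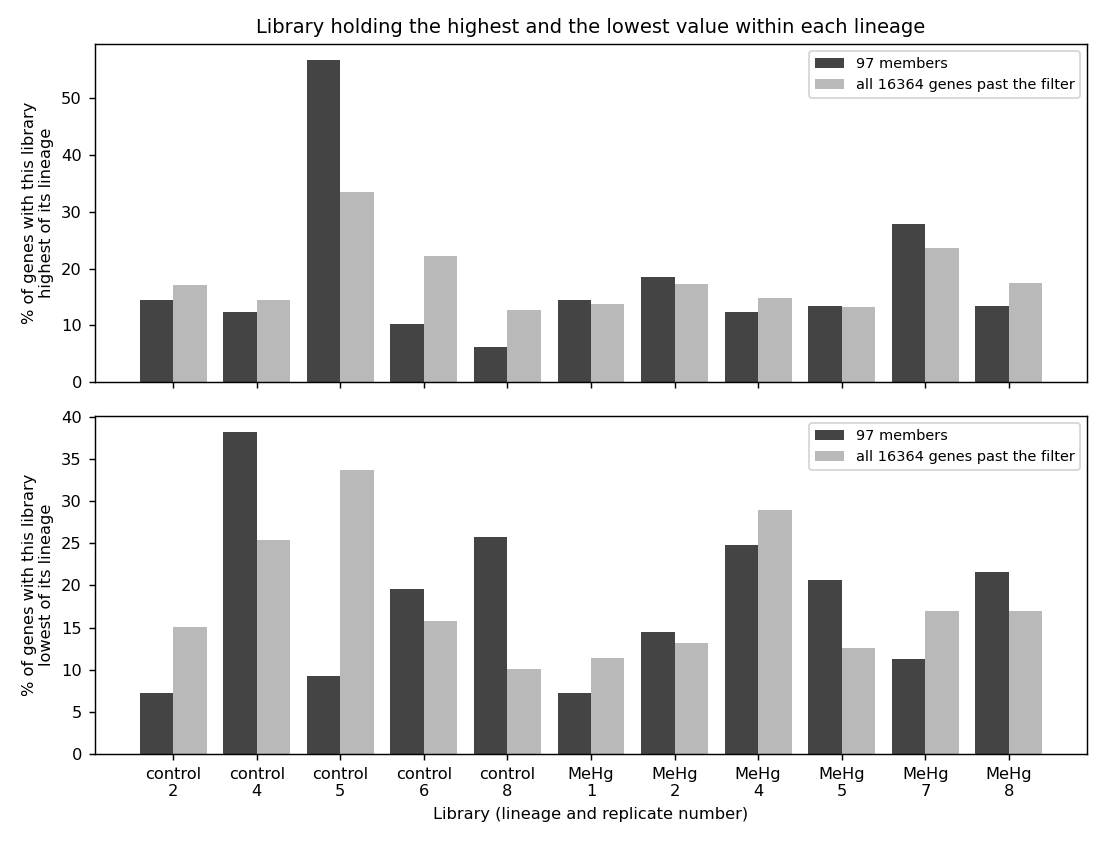
Percentage of genes for which each library held the highest (top) or lowest (bottom) value of its own lineage. Dark bars are the 97 members and light bars all 16364 genes past the filter. Control replicate 5 is highest in 56.7% of members and control replicate 4 lowest in 38.1%.

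The number of genes that meet the rule rests on these libraries. Without control replicate 4 the same rule gave 319 genes, without control replicate 5 it gave 183 and without MeHg replicate 7 it gave 151. With the 8 libraries of lower epidermis level, thus without control replicate 4 and MeHg replicates 4 and 5, it gave 435. All 97 members stay separated when libraries are left out, by the way the rule works, and fewer libraries let more genes pass. The median log2 difference of the members was -0.60 over those 8 libraries and -0.54 without control replicate 5. Within the lineages, over 11 libraries, the mean of the members correlated at 0.692 with the level of radial glia markers and at 0.691 with that of oligodendrocyte markers. These were 0.566 and 0.383 without control replicate 5. For neuron markers the correlation was 0.256, and 0.586 without control replicate 5. For epidermis markers it was -0.431, and -0.747 without that library. Other lists also turned more negative without it. Microglia and leukocyte markers went from -0.06 to -0.608, muscle from -0.16 to -0.608, cartilage and bone from -0.10 to -0.570 and red blood cells from 0.21 to -0.533. With the number of genes above 0 the mean of the members correlated at -0.759, and at -0.750 without control replicate 5. All these measures come from the same libraries and share their depth and size factors, and their part in the lineage differences was not tested.

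Genes outside the set whose within-lineage pattern was most like the mean of the members were cops8, cops4, ldhba, med21 and cops7a, with Pearson r from 0.952 to 0.972 over 11 libraries. They head a ranking of 16267 other tested genes, whose r ran from -0.949 to 0.972 with a median of 0.01. The members' own r with their mean ran from -0.593 to 0.897 with a median of 0.48, so it was lower than in these 5 genes. The r of the 5 genes without control replicate 5 ran from 0.892 to 0.941. cops8, cops4 and cops7a encode subunits of the COP9 signalosome, ldhba a lactate dehydrogenase subunit and med21 a Mediator subunit. Their own log2 differences between the lineages were between -0.21 and -0.10, beside standard errors of 0.14 to 0.21.

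The places of the members in the genome were looked up. In the order of genes on the assembly GRCz12tu, which is not the build of the files, 75 of the 97 could be placed, on 23 of 25 chromosomes with at most 9 on 1 chromosome. A single pair of members, fam192a and rspry1, were next to each other. The same counts were not made for all tested genes, so neither spread nor clustering is read from them.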

How the data were processed

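Total RNA of adult F3 brains was sequenced as paired-end TruSeq libraries, per the labels' protocols. Tools listed in the submitters' processing notes, without settings, are TopHat, Cuffnorm, cutadapt, FastQC and CASAVA 1.8.2, with Zv9 as the build. Strand and annotation are not given in the sources consulted. Duplicated and overlapping genes are uncertain for that reason. The authors deposited a table of signal values, read here as fragment counts divided by a size factor per library, because 98.2% to 98.9% of low values (up to 200 steps) came out whole, within 0.01, when divided by the library's step. They also deposited FPKM values, normalised by the authors for length and depth. Each table has 1 unnamed column, which was not used. The labels list 12 samples, of which 5 control and 6 MeHg libraries were analysed. The implied depth of 2062500 to 7504246 fragments makes values of low genes in shallow libraries the least precise.

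Members and gene lists were chosen with earlier results of these data known. Members need a scaled count of at least 10 in at least 6 libraries and no overlap between the lineages. Named are the 24 members with the widest gap on the log2(scaled count + 1) scale and a gene symbol that is not clone-style, and up to 2 more of each list, and up to 2 other genes of a list with the smallest p; genes outside this are said to be chosen after their values were seen. hccsa.1, cox17 and the other members of roles given by fold only were also chosen so. Other genes were tested on log2(scaled count + 1), a pseudocount of 1, with limma 3.58.1 in R 4.3.3 (trend and robust estimation, statmod 1.5.0), adjusted by Benjamini-Hochberg over 16364 genes at 0.05. Fold changes on this scale understate the change of low genes. The fit was also run on simulated data, with independent genes and the same SD in both lineages. In the real data the median SD of log2 over all tested genes was 0.440 in controls and 0.290 in MeHg libraries. That run therefore does not show how the fit behaves with these libraries. Library measures were compared by an exact two-sided permutation test. Python 3.11.15 with numpy 2.4.6, pandas 2.3.3 and, for figures, matplotlib 3.10.9 did the rest. Of 97 members, 79 have a symbol in the file, 4 were named through the reference table by identifier and 14 keep their identifier. Alternatives covered scalings, filters, pseudocounts, the FPKM table, voom, the replicate number as a block and each library left out. No promoter, protein or genome sequence was used here, so the planned motif search was not run.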

Additional observations from a re-analysis of the deposited data

Results flagged for a closer look

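In 6 of 58 groups of libraries checked, 1 library lay far from the others by the size of its gap within the group. All 6 are control groups in which control replicate 5 was highest. The cutoff would mark about 1 in 20 groups of unselected values. These groups belong to members, and the rule bars low controls but not high ones, so that rate cannot be applied here. Over all tested genes control replicate 5 was the highest control in 33.4% and the lowest in 33.6%. In the flagged genes its values were as follows. It held 2067 scaled counts of dynll1 against 1218 in the next control, 37.6 of TATDN3 against 23.8 and 160.9 of gdap2 against 132.6. It held 227.8 of fam192a against 139.7, 298.9 of hax1 against 187.4 and 365.8 of hadh against 191.3. The same library held the highest control sums of radial glia, oligodendrocyte, red blood cell, proliferating cell, pituitary, lens, muscle, cartilage and bone, and liver markers. Its 10 most abundant genes made up 15.8% of its total, beside 7.25% to 14.0% in the other controls. The part of these measures in the values above was not tested.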

How the results depend on the processing

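The member count of 97 was 105 with TMM scaling (79 shared), 104 with median-of-ratios scaling (74 shared), 109 with upper-quartile scaling (87 shared) and 91 in the FPKM table (73 shared). It was 91 with a minimum of 20 and 104 with none. It was 5 with the authors' scaling undone, which leaves depth uncorrected and moves the median of all genes to 0.30, and 10 where the lowest control had to be 25% above the highest MeHg value. Leaving out 1 library gave 120 to 319. The 8 libraries with a lower epidermis level, chosen after seeing the data, gave 435. The median log2 difference of the members, -0.57, was -0.29 with scaling undone and -0.62 to -0.54 with 1 library left out.

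The limma calls over all genes, 28 lower and 16 higher, became 12 lower with scaling undone, 15 lower and 7 higher in the 8 libraries with a lower epidermis level, 21 to 42 lower with 1 library left out and 13 to 30 higher, with 30 higher without control replicate 5. With the replicate number as a block they were 11 lower and 9 higher, and 13 lower and 10 higher in the same 8 libraries without pairing. Same-numbered libraries correlated at 0.0992, 0.463, 0.193 and 0.0554 for numbers 2, 4, 5 and 8, so the numbers were not taken to pair the samples, and not every library correlated best with its own number.

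Of 723 values of the 29 named members under alternatives, 1 turned sign (acadvl, 0.11 with scaling undone) and 15 moved by over 1 SD, all with scaling undone. With 5 and 6 libraries and narrow gaps, membership near the edge is set by single libraries and by the size factors.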
